A study of Homo sapiens with 6 samples.

Results

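The transcripts described here are the expressed LINC RNAs of C42 cells, that is, the rows of the deposited count table whose symbol is LINC followed by 5 digits and whose counts over the 6 libraries sum to at least 200. This rule gave 110 members out of 641 LINC rows and 31413 rows in all. The members were thus selected on their summed counts over both groups, and their levels are given as a description. The other 531 LINC rows lie under the minimum.

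LINC symbols are placeholder names that the gene nomenclature gives to long intergenic noncoding RNA genes with no described function. Such RNAs are transcribed by RNA polymerase II, are often spliced and polyadenylated, and are typically less abundant and more tissue-restricted than messenger RNAs. Some act near their own site of transcription, some act on RNA or protein elsewhere in the cell, and a few turned out to encode small proteins. NSD2, also called WHSC1, is a histone methyltransferase that dimethylates lysine 36 of histone H3, a mark found over active and intergenic chromatin.

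Both groups are cultures of C42 (usually spelled C4-2), a prostate cancer line descended from LNCaP, grown in RPMI with 10% fetal bovine serum and antibiotics. The first group carried an shRNA against NSD2 (shNSD2, libraries 1, 2 and 3) and the second a control shRNA (shCTR, libraries 1, 2 and 4), so every library carries an shRNA. The time after shRNA delivery, the number of distinct shRNAs and whether cells were cloned or pooled are not stated in the labels. Nor do the labels name separate cultures for the libraries, so the p-values rest on library-to-library spread that may be technical only. In bulk RNA, fewer cells expressing a transcript and less transcript per cell cannot be told apart.

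Libraries held 19412896 to 20665494 counts, and a floor of 3 counts was 0.145 to 0.156 CPM (counts scaled by library size), which covers counting error only. NSD2 was at 85.3, 86.4 and 89.7 CPM in shNSD2 libraries, against 219, 223 and 200.1 CPM in shCTR libraries. The groups did not overlap, and NSD2 fell by 1.30 on the log2 scale (SE 0.087, adjusted p = 8.03e-05, edgeR's quasi-likelihood test). Its exact two-sided permutation p was 0.1, the smallest that 3 against 3 libraries allow. The prostate luminal marker KLK3 was abundant, averaging 5831 CPM in shNSD2 and 6628 CPM in shCTR libraries. Of the leukocyte markers CD14 and LYZ, 0 reached 10 counts in a library. Fibroblast and endothelial markers summed to 9.21 to 10.6 CPM in shNSD2 and 7.14 to 7.58 CPM in shCTR libraries, nearly all of it VWF and PDGFRB, while LUM and PECAM1 had at most 3 counts in a library. The neuroendocrine markers SYP and NCAM1 summed to 6.21 to 8.22 CPM in shNSD2 and 4.25 to 4.74 CPM in shCTR libraries, with NCAM1 at 4 counts or fewer. The basal marker KRT14 was at 0.561 to 1.23 CPM in shNSD2 and 0.626 to 1.61 CPM in shCTR libraries. The part of these markers in the members' values was not tested.

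By GENCODE 29, 78 of the 110 members are lincRNAs, 12 processed transcripts, 11 antisense RNAs, 3 RNAs of bidirectional promoters and 4 transcribed pseudogenes, while 2 are now annotated as protein coding. The coding pair are LINC00116, now MTLN, and LINC02581, now RNF227. In all, 21 members carry a newer symbol. The longest transcript of a member had a median of 3 exons, and 21 members had a single exon, against a median of 2 exons for other long noncoding genes over the count minimum and 6 over all genes tested. Exons of 49 members overlap those of another annotated gene, 21 on the same strand and 37 on the other strand. The strand setting of the counting is not given in the sources used here, so reads of such pairs cannot be told apart.

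The members were of low abundance. Their median level was 2.15 RPKM (CPM per kilobase of exon), against 7.04 RPKM for protein-coding genes and 2.57 RPKM for other long noncoding genes over the same count minimum. Mean CPM was at least 10 for 28 members and under 5 for 59. Only LINC00963, LINC00665 and LINC01278 averaged 100 CPM or more, and these 3 held 35.0% of all counts of the members. The members together took 0.139% to 0.148% of the counts in shNSD2 libraries, against 0.131% to 0.136% in shCTR libraries. These shares weigh the abundant members most, and the 3 named above all had more counts in shNSD2 than in shCTR. LINC00963 had 11980 against 9907 counts, LINC00665 10407 against 9577 and LINC01278 8591 against 7841.

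**Figure D1:**
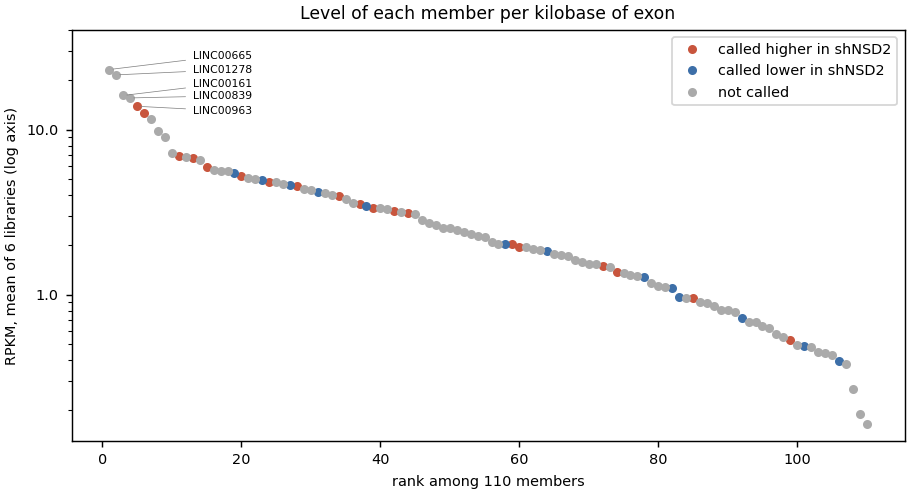
Mean level of each of the 110 members over 6 libraries, in RPKM on a log axis, against its rank, coloured by its call in shNSD2 against shCTR. The leading members are LINC00665 at 23.1 RPKM and LINC01278 at 21.5 RPKM, and called members are spread over the whole range of levels.

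The comparison between shNSD2 and shCTR asks which transcripts change when NSD2 is reduced. LINC RNAs moved in both directions. Rises and falls of single genes are given as log2 fold changes, shNSD2 over shCTR. Of the 110 members, all tested, 19 rose and 13 fell at an adjusted p under 0.05 (edgeR's quasi-likelihood test, adjusted over all 17160 genes tested), and 78 passed in neither direction. Among all genes tested, 15.5% rose and 15.2% fell, beside the members' 17.3% and 11.8%. Among other genes over the same count minimum, 17.5% rose and 16.8% fell. The members' rises are thus near the background, and their falls are somewhat fewer, a difference that was not tested. The 3 shNSD2 libraries lay above all shCTR libraries for 31 members and below them for 23, where 24.0% and 22.8% of all genes tested did so. Every member called in either direction had groups that did not overlap, as did 2608 of the 2658 genes called higher among all genes tested. Of the called members, 5 rose and 1 fell by at least 2-fold, against 2.41% and 3.33% of all genes tested. Of other genes over the count minimum, 1.44% and 2.34% did so.

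The median log2 fold change of the members was 0.10, against 0.01 over all genes tested, and it ranged from -1.04 to 2.49. Fold changes were positive for 65 members and negative for 45. The 1099 other long noncoding genes over the same minimum had 14.0% higher and 10.2% lower calls and a median of 0.03. Of the 20 SNHG genes, hosts of small nucleolar RNAs that are also spliced and noncoding, 6 rose and 6 fell. Because a member could enter through its higher group alone, the counts were repeated for the 100 members with at least 100 counts in each group, of which 18 rose and 11 fell. Among all genes tested, to which this rule was not applied, 15.5% rose and 15.2% fell.

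**Figure D2:**
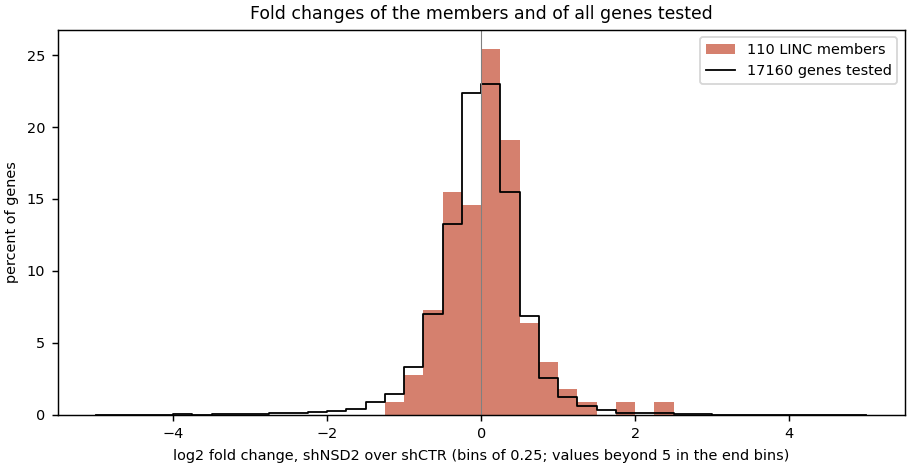
Distribution of log2 fold changes, shNSD2 over shCTR, for the 110 members (filled) and all 17160 genes tested (line), as percent of genes per bin of 0.25. The members lie between -1.04 and 2.49, with a median of 0.10 and 5 called members at least 2-fold higher.

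Calls depended on which libraries entered. Without shNSD2 library 1, 11 members rose and 3 fell (beside 7.78% and 9.07% of all genes tested), without library 2, 11 and 3 (8.28% and 8.89%), and without library 3, 8 and 2 (6.33% and 7.49%). Without shCTR library 1, 10 members rose and 2 fell (8.51% and 9.89%), and without library 2, 9 and 3 (6.65% and 8.28%). Without shCTR library 4, by contrast, 29 rose and 16 fell (23.9% and 22.6%). Library 4 was the control nearest to the shNSD2 mean for 52 of the 110 members, library 1 for 28 and library 2 for 30. For the members that rose it was nearest in 13 of 19, and for those that fell in 8 of 13. Of the 32 called members, 8 were called in every fit that left out a library, and all 8 rose: LINC01133, LINC01029, LINC01694, LINC00957, LINC01011, LINC00294, LINC01703 and LINC01006.

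**Figure D3:**
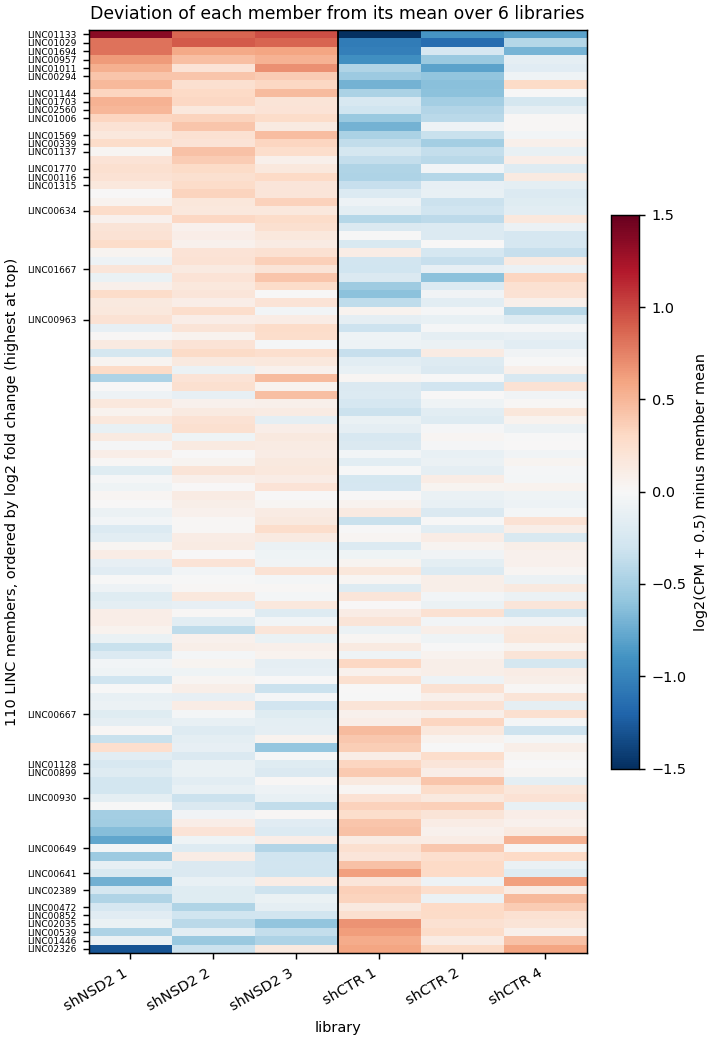
Deviation of log2(CPM + 0.5) of each of the 110 members from its mean over 6 libraries, shNSD2 libraries on the left and shCTR libraries on the right, with members ordered by fold change and called members named. At both ends of the list the groups differ in colour, and shCTR 4 is paler than shCTR 1 for most of the members called higher.

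The 5 members that rose at least 2-fold were LINC01133, LINC01029, LINC01694, LINC00957 and LINC01011. LINC01133, a spliced RNA reported to bind the splicing factor SRSF6 in colorectal cancer cells, lies at chr1:159961218-159984750 on the plus strand (GRCh38, GENCODE 29). It was at 8.92, 6.26 and 6.69 CPM in shNSD2 libraries, against 0.782, 1.49 and 1.62 CPM in shCTR libraries. All shNSD2 libraries stood far above all controls. The log2 fold change was 2.49 (SE 0.251, adjusted p = 4.18e-04, edgeR), on 435 counts in shNSD2 and 78 counts in shCTR. It was the largest rise among the members, and with 78 counts in shCTR it reached the minimum of 200 through its shNSD2 libraries.

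LINC01029 lies at chr18:77971294-77993722 on the minus strand, with no coding gene within 100 kb. It was at 6.48, 6.98 and 6.79 CPM in shNSD2 libraries, against 1.42, 1.30 and 2.45 CPM in shCTR libraries. The groups did not overlap, shCTR 4 was the highest control, and the log2 fold change was 1.97 (SE 0.219, adjusted p = 5.57e-04, edgeR). LINC01694, at chr21:45593654-45603056 on the plus strand, was at 6.02, 4.98 and 5.09 CPM in shNSD2 libraries, against 1.32, 2.60 and 1.77 CPM in shCTR libraries. Here shCTR 2 was the highest control and still below every shNSD2 library, and the log2 fold change was 1.49 (SE 0.228, adjusted p = 0.00208, edgeR).

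LINC00957, at chr7:44039171-44042306 on the plus strand, was at 6.02, 5.24 and 5.53 CPM in shNSD2 libraries, against 1.71, 2.36 and 3.34 CPM in shCTR libraries. Again shCTR 4 was the highest control, below every shNSD2 library, and the transcript rose by 1.18 (SE 0.218, adjusted p = 0.00437, edgeR). Its exons overlap the pseudogene RASA4CP on the other strand. LINC01011, at chr6:2987967-2991173 on the plus strand, was at 3.77, 2.93 and 4.27 CPM in shNSD2 libraries, against 1.66, 1.20 and 2.14 CPM in shCTR libraries. The groups did not overlap, and it rose by 1.14 on the log2 scale (SE 0.241, adjusted p = 0.00739, edgeR). It shares exon sequence on the same strand with NQO2, a quinone reductase that rose as well, by 0.31 (SE 0.0824, adjusted p = 0.0184, edgeR), so its reads may belong in part to NQO2.

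LINC00294 is a single-exon gene at chr11:33076149-33079454 on the plus strand whose exon overlaps CSTF3, which encodes a subunit of the mRNA cleavage machinery, on the other strand. It was at 16.9, 16.8 and 16.4 CPM in shNSD2 libraries, against 8.41, 8.19 and 12.0 CPM in shCTR libraries. The shNSD2 libraries were nearly level and all controls lower, with shCTR 4 the highest of them. Its log2 fold change was 0.81 (SE 0.145, adjusted p = 0.00379, edgeR). LINC01006, now RNF32-DT because it is divergent to RNF32, whose exons it also overlaps, averaged 28.6 ± 0.57 CPM in shNSD2 and 18.6 ± 4.07 CPM in shCTR libraries (SD, n = 3 each), with shCTR 4 at 23.2 CPM as the highest control. It rose by 0.62 (SE 0.136, adjusted p = 0.00854, edgeR), while RNF32 itself had a log2 fold change of -0.18 and was not called.

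Of the 10 largest rises, the remaining 3 were LINC01144, LINC01703 and LINC02560, with log2 fold changes of 0.78, 0.77 and 0.71 (adjusted p = 0.012, 0.00934 and 0.0257, edgeR). LINC01144 was not called without shNSD2 library 3 (adjusted p = 0.0567, edgeR) or without shCTR library 2 (adjusted p = 0.0556, edgeR). LINC02560 was not called without shNSD2 1, shNSD2 3, shCTR 1 or shCTR 2 (adjusted p of 0.061 to 0.103, edgeR). With a correction for GC content and exon length, neither LINC01703 (0.44, adjusted p = 0.089, edgeR) nor LINC02560 (0.54, adjusted p = 0.0761, edgeR) was called. The other members that rose were LINC01569, LINC00339, LINC01137, LINC01770, LINC00116, LINC01315, LINC00634, LINC01667 and LINC00963, with log2 fold changes of 0.29 to 0.58. Of these 9, LINC01569 was called in 4 of the fits that left out a library (not without shNSD2 3 or shCTR 2), LINC01137 in 2 (without shNSD2 1 or shCTR 4) and LINC01770 in 2 (without shCTR 2 or shCTR 4). Without shCTR 4 was the one such fit that called the other 6. A start within 1 kb of that of a coding gene on the other strand was annotated for 19 members. Of these, 3 rose and 1 fell (15.8% and 5.26%), beside 15.5% and 15.2% of all genes tested. The 3 members that rose were LINC01006, LINC01137 beside ZC3H12A, an RNase of inflammatory transcripts, and LINC01770 beside VWA1.

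**Figure D4:**
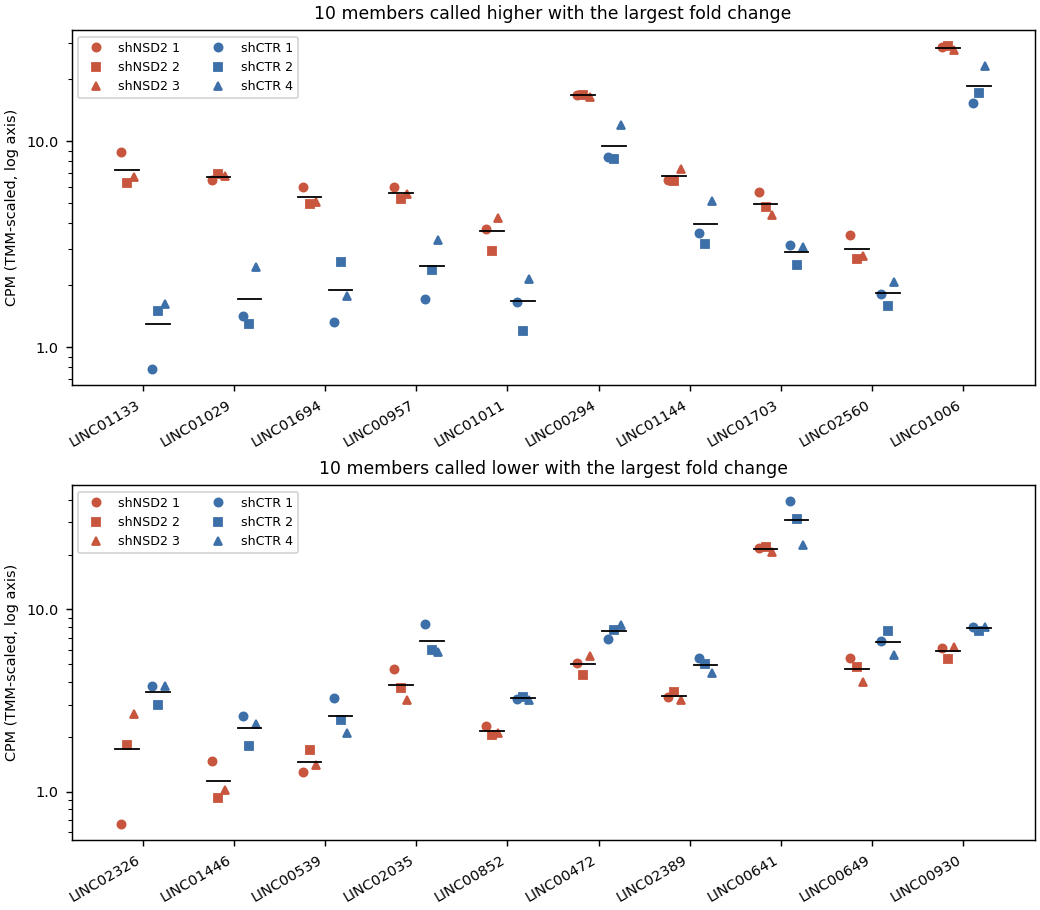
CPM of the 10 members called higher and the 10 called lower with the largest fold changes, 1 point per library on a log axis, with shNSD2 left of shCTR and bars at the group means. The 20 were chosen among called members whose groups do not overlap. They run from LINC01133 at 6.26 to 8.92 CPM in shNSD2 and 0.782 to 1.62 CPM in shCTR, to LINC00930 at 5.34 to 6.25 CPM in shNSD2 and 7.62 to 8.02 CPM in shCTR.

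The falls were smaller than the largest rises. LINC02326, a 5-exon RNA at chr14:28875404-29064993 on the minus strand with no coding gene within 100 kb, fell by 1.04 (SE 0.348, adjusted p = 0.0447, edgeR). It was at 0.663, 1.80 and 2.67 CPM in shNSD2 libraries, against 3.81, 2.99 and 3.81 CPM in shCTR libraries. The shNSD2 libraries were the more scattered, with shNSD2 3 close to shCTR 2 and shNSD2 1 far lower. Without shNSD2 1 the log2 fold change was -0.65, without shNSD2 3 it was -1.52, and it was not called without shNSD2 1, shNSD2 2, shCTR 1 or shCTR 2 (adjusted p of 0.0783 to 0.0989, edgeR).

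LINC02035, a single-exon RNA at chr3:122886941-122892416 on the plus strand, was at 4.69, 3.70 and 3.20 CPM in shNSD2 libraries, against 8.36, 6.02 and 5.84 CPM in shCTR libraries. The groups did not overlap and it fell by 0.81 (SE 0.197, adjusted p = 0.0135, edgeR). Leaving out shNSD2 3 was the one such fit in which it was not called (adjusted p = 0.0626, edgeR). LINC00472, described as growth-restraining in breast cancer cells, averaged 5.01 ± 0.61 CPM in shNSD2 and 7.58 ± 0.679 CPM in shCTR libraries (SD, n = 3 each). It fell by 0.59 (SE 0.146, adjusted p = 0.0139, edgeR) and was not called without shNSD2 2 (adjusted p = 0.0669, edgeR) or shCTR 2 (adjusted p = 0.0543, edgeR).

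LINC01446 and LINC00539 fell by 0.97 and 0.84 (adjusted p = 0.0178 and 0.0229, edgeR), from few reads. LINC01446 had 68 counts in shNSD2 and 135 in shCTR, and LINC00539 had 87 counts in shNSD2 and 158 in shCTR. Both had under 100 counts in shNSD2, so they reached the minimum of 200 through their shCTR libraries. LINC01446 was not called without shNSD2 2, shNSD2 3 or shCTR 1, nor LINC00539 without shNSD2 1, shNSD2 3, shCTR 1 or shCTR 2 (adjusted p of 0.0544 to 0.082, edgeR). LINC00852, which lies antisense over GHRL, the gene of the hunger hormone ghrelin, was at 2.29, 2.05 and 2.08 CPM in shNSD2 libraries, against 3.23, 3.33 and 3.18 CPM in shCTR libraries. Both groups were tight, and it fell by 0.60 (SE 0.171, adjusted p = 0.0251, edgeR). It was called again only in the fit without shCTR 4, of the 6 that left out a library.

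Among the more abundant members that fell, LINC00641 was at 21.7, 21.9 and 20.7 CPM in shNSD2 libraries, against 39.2, 31.5 and 22.5 CPM in shCTR libraries. The controls differed widely, with shCTR 4 just above the shNSD2 libraries. Its log2 fold change was -0.53 (SE 0.165, adjusted p = 0.0331, edgeR), -0.72 without shCTR 4 and -0.34 without shCTR 1. Of the fits that left out a library, only the one without shCTR 4 called it. LINC02389, LINC00649, LINC00930, LINC00899, LINC01128 and LINC00667 fell by 0.26 to 0.57. Of the fits that left out a library, the one without shCTR 4 called the first 5 of these again, and no other did.

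Promoter windows are shown for the 3 largest rises and 3 largest falls that had one within 1 kb of the GENCODE start. This passed over LINC01029, LINC01694 and LINC01011 among the rises, and LINC01446 and LINC00539 among the falls. The abundant LINC00963 was added outside this rule, and its rise was the smallest of the 19. The windows come from RefSeq (GRCh38.p14), which has a window for 82 of the 110 members, from 250 bases before to 50 bases after the annotated start. Capitals mark matches, on either strand, to CCAAT (the CCAAT box), to TATAAA (the TATA box), to CACGTG (an E-box), to CCGGAAG (an ETS motif), to GGGCGG (the GC box), to TGACGT (the CRE core) or to AGAACA (1 arm of a steroid hormone response element). Neighbouring GGGCGG matches can overlap. The windows of members that rose are LINC01133 at chr1:159960974-159961273, LINC00957 at chr7:44038799-44039098, LINC00294 at chr11:33075900-33076199 and the abundant LINC00963 at chr9:129488410-129488709, all on the plus strand.
LINC01133: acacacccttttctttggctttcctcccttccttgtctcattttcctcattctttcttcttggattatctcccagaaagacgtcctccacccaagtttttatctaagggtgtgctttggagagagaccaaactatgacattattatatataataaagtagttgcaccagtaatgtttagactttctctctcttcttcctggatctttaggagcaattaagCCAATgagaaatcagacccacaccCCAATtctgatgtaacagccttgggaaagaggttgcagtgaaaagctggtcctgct
LINC00957: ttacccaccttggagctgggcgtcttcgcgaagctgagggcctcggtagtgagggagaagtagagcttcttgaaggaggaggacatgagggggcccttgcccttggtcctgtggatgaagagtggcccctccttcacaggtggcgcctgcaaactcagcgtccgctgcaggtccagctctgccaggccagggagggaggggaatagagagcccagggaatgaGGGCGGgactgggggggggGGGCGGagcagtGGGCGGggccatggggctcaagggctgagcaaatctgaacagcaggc
LINC00294: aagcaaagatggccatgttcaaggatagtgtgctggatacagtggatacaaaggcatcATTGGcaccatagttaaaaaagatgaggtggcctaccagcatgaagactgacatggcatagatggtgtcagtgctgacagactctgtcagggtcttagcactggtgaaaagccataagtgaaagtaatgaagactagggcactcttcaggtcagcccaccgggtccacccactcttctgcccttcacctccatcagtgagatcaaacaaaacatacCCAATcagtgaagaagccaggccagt
LINC00963: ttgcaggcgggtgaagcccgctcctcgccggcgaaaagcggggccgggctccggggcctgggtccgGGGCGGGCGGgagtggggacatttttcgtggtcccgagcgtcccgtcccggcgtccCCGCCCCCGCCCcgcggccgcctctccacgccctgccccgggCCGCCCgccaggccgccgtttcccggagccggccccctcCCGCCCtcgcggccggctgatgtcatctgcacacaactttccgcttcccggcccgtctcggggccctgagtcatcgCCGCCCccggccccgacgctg
The windows of members that fell are LINC02326 at chr14:29065006-29065305 on the minus strand, and LINC02035 at chr3:122886263-122886562 and LINC00852 at chr3:10284169-10284468 on the plus strand.
LINC02326: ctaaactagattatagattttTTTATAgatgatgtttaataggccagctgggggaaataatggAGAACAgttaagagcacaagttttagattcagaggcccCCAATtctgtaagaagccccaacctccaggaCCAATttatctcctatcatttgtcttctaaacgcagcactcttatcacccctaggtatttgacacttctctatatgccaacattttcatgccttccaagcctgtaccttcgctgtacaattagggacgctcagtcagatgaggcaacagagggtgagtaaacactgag
LINC02035: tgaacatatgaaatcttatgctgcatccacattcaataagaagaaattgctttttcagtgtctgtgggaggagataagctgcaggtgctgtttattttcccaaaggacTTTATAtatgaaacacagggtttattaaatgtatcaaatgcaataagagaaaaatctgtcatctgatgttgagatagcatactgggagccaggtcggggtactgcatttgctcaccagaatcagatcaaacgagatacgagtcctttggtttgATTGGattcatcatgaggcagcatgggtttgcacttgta
LINC00852: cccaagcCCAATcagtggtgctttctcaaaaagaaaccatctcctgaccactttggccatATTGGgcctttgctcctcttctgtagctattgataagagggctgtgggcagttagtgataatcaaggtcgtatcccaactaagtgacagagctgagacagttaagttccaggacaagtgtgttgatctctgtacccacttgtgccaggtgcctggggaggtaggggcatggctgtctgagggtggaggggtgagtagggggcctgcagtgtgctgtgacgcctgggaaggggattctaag
RefSeq starts LINC00963 5209 bases from the GENCODE start used for its gene coordinates. For LINC02035 the distance was 428 bases, and its window ends before its GENCODE start. The window of LINC00963 holds 7 GC box matches and that of LINC00957 holds 3, while the windows of LINC01133, LINC00294 and LINC00852 hold 2 CCAAT matches each. LINC02326 and LINC02035 both hold TATAAA as well as CCAAT.

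Over all members with a window, 39 of 82 held CCAAT (47.6%), against 34.6% of 34796 distinct windows of all genes. GGGCGG was held by 42 (51.2%), against 44.9% of all windows, and CCGGAAG by 16 (19.5%), against 10.2%. TATAAA was in 13 (15.9% against 11.6%), AGAACA in 11 (13.4% against 14.8%), CACGTG in 10 (12.2% against 7.20%) and TGACGT in 5 (6.10% against 7.97%). The windows of all genes were not filtered by expression, whereas the members had at least 200 counts. These shares therefore do not compare the members with other expressed genes. By call, CCAAT was in 8 of 15 windows of members that rose, 6 of 10 of those that fell and 25 of 57 of those not called. GGGCGG was in 8 of 15, 3 of 10 and 31 of 57, and TATAAA in 0 of 15, 2 of 10 and 11 of 57. CCGGAAG was in 1 of 15, 2 of 10 and 13 of 57. The median GC content of the windows was 64.7% for members that rose, 51.0% for members that fell and 62.0% for members not called. It was 62.2% for all 82 members with a window and 58.7% for all windows.

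GC content of each member's longest transcript differed in the same order. Its medians were 52.2% for members that rose, 46.0% for those that fell and 47.5% for those not called. With a correction for GC content and length, 14 members rose and 11 fell, beside 14.8% and 15.0% of all genes, and they included 12 of the 19 and 7 of the 13 called without it. Under it LINC01770 had a log2 fold change of 0.09, against 0.49 without the correction, and LINC00634 had 0.11, against 0.44. LINC01703, LINC02560, LINC01137, LINC01315 and LINC01667 also lost their calls, with 0.22 to 0.54. Among members that fell, LINC00667 (-0.14), LINC01128 (-0.21), LINC00649 (-0.26), LINC00899 (-0.31), LINC00641 (-0.42) and LINC02389 (-0.43) lost theirs. LINC00963 had a larger log2 fold change of 0.46, and LINC00662 (0.43) and LINC00161 (-0.55) were called under the correction only, of these 2 fits. The part of GC content in the remaining calls was not tested.

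Of the 5 members highest per length, 1 was called. LINC00665, highest per length at 23.1 RPKM and reported to encode a micropeptide in breast cancer cells, was at 168, 171 and 183 CPM in shNSD2 libraries, against 149, 156 and 171 CPM in shCTR libraries. The groups overlapped, since shCTR 4 lay above shNSD2 1, and the log2 fold change was 0.13 (SE 0.0911, adjusted p = 0.287, edgeR). LINC01278 was at 147, 138 and 147 CPM in shNSD2 libraries, against 132, 126 and 131 CPM in shCTR libraries. Its groups did not overlap, but the log2 fold change of 0.15 was not called (SE 0.0819, adjusted p = 0.192, edgeR).

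LINC00963, first studied in the passage of LNCaP-derived cells to androgen independence, was at 212, 194 and 197 CPM in shNSD2 libraries, against 165, 168 and 159 CPM in shCTR libraries. The shNSD2 libraries all lay higher, and it rose by 0.29 (SE 0.0856, adjusted p = 0.0272, edgeR). It was not called without any 1 of shNSD2 1, 2 or 3, shCTR 1 or shCTR 2 (adjusted p of 0.0513 to 0.0992, edgeR). LINC00161 at 16.1 RPKM and LINC00839 at 15.6 RPKM completed the 5 highest per length. LINC00161 was lower in all shNSD2 libraries but not called (log2 fold change -0.48, SE 0.208, adjusted p = 0.103, edgeR). LINC00839 overlapped between groups (log2 fold change -0.10, SE 0.118, adjusted p = 0.526, edgeR).

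LINC00116, now MTLN, encodes mitoregulin, a small protein of the inner mitochondrial membrane. It was at 29.6, 29.9 and 31.3 CPM in shNSD2 libraries, against 18.3, 18.7 and 27.9 CPM in shCTR libraries. The shNSD2 libraries were level, shCTR 4 lay just under them, and the other controls were far lower. The log2 fold change was 0.49 (SE 0.147, adjusted p = 0.0308, edgeR), and 0.71 without shCTR 4. It was not called without any 1 of the other 5 libraries (adjusted p of 0.0725 to 0.124, edgeR). Of the 10 listed loci reported to encode a small protein, LINC00116 and LINC00665 are the members.

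Of 14 LINC genes listed for published work in cancer cells, 4 are members. LINC00963 rose. LINC00667 had a log2 fold change of -0.26, just past the threshold (SE 0.0899, adjusted p = 0.0484, edgeR), and was called in 0 of the 6 fits that left out a library (adjusted p of 0.0523 to 0.161, edgeR) and in 2 of the 15 alternatives in all. LINC00662 was at 45.8, 49.6 and 49.7 CPM in shNSD2 libraries, against 40.1, 39.1 and 44.6 CPM in shCTR libraries. The groups did not overlap, but it was not called (log2 fold change 0.23, SE 0.0869, adjusted p = 0.0668, edgeR). LINC00467 had a log2 fold change of 0.32 (SE 0.168, adjusted p = 0.17, edgeR), and its shCTR 4 value of 22.6 CPM lay within the shNSD2 range of 20.1 to 23.2 CPM.

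A pair of members was named after their values were seen, for their place in prostate cells and beside a chromatin gene. ARLNC1 (LINC02170), an androgen-induced RNA of prostate cells, was at 2.60, 4.42 and 5.43 CPM in shNSD2 libraries, against 3.86, 3.76 and 3.13 CPM in shCTR libraries. The groups overlapped (log2 fold change 0.21, SE 0.244, adjusted p = 0.529, edgeR). CHASERR (LINC01578), which in mouse restrains its neighbour Chd2, was level at 30.1, 30.2 and 29.7 CPM in shNSD2 libraries, against 31.0, 32.1 and 28.5 CPM in shCTR libraries. Neither it nor CHD2 was called (log2 fold change -0.03 for both, SE 0.0856 for CHASERR and 0.115 for CHD2).

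A protein-coding gene lay within 100 kb of 94 members, and for 81 of these the nearest one was tested, 80 different genes in all. Of these 81 neighbours, 9 rose and 17 fell, next to 15.5% and 15.2% of all genes tested. Beside the members that rose, 13 had a tested neighbour, of which 1 rose and 1 fell. Beside the members that fell, 10 had a tested neighbour, of which 1 rose and 4 fell. Across the 81 pairs, Spearman's rho between fold changes of member and neighbour was 0.24, a description over pairs that share libraries and, where exons overlap, reads.

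In 4 pairs the member and its neighbour both fell. ZDHHC20, a protein palmitoyltransferase 23852 bases from LINC00539, was at 245, 264 and 236 CPM in shNSD2 libraries, against 481, 412 and 349 CPM in shCTR libraries. It fell by 0.74 with no overlap between groups (SE 0.124, adjusted p = 0.00302, edgeR). DIRC2, 5802 bases from LINC02035, fell by 0.34 (adjusted p = 0.0346, edgeR), SAMD11, 64482 bases from LINC01128, fell by 0.73, and PRR34, next to LINC00899, fell by 0.79 although its shCTR 4 value lay within the shNSD2 range. Of the 6 fits that left out a library, LINC00539 was called in 2 and LINC02035 in 5. In those fits LINC01128 and LINC00899 were called only without shCTR 4 (otherwise adjusted p of 0.0567 to 0.115, edgeR), and neither of these was called with the GC and length correction described above.

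Opposite changes were seen in 2 pairs where genes overlap, while LINC01011 and NQO2, which share exon sequence, both rose. LINC01144 lies over an exon of ZSWIM5 on the other strand. ZSWIM5 was at 0.816, 0.719 and 0.776 CPM in shNSD2 libraries, against 1.91, 2.02 and 1.88 CPM in shCTR libraries. It fell by 1.32 (SE 0.224, adjusted p = 0.00315, edgeR), while LINC01144 rose by 0.78. ATP5PO (ATP5O in the table), a subunit of mitochondrial ATP synthase, starts head to head with LINC00649 and overlaps its exons. It was at 26.5, 26.5 and 30.5 CPM in shNSD2 libraries, against 14.0, 16.1 and 23.7 CPM in shCTR libraries. It rose by 0.64 (SE 0.168, adjusted p = 0.0181, edgeR) while LINC00649 fell by 0.49 (SE 0.168, adjusted p = 0.0489, edgeR). LINC00649 was called again only without shCTR 4, of the fits that left out a library, and had a log2 fold change of -0.26 with the GC and length correction (adjusted p = 0.199, edgeR).

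Members on opposite strands that share exon sequence had fold changes of opposite sign, with 1 of each pair called and the difference not tested. LINC00526 had a log2 fold change of 0.53 (adjusted p = 0.0906, edgeR) and LINC00667, whose call was lost in every fit that left out a library, had -0.26. LINC00115 had 0.37 (adjusted p = 0.143, edgeR) and LINC01128 had -0.36 (adjusted p = 0.0231, edgeR). Among the 61 members with no exon overlap with any annotated gene, 12 rose and 7 fell (19.7% and 11.5%). Among the 49 with an overlap, 7 rose and 6 fell (14.3% and 12.2%). The shares over all genes tested were 15.5% and 15.2%.

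**Figure D5:**
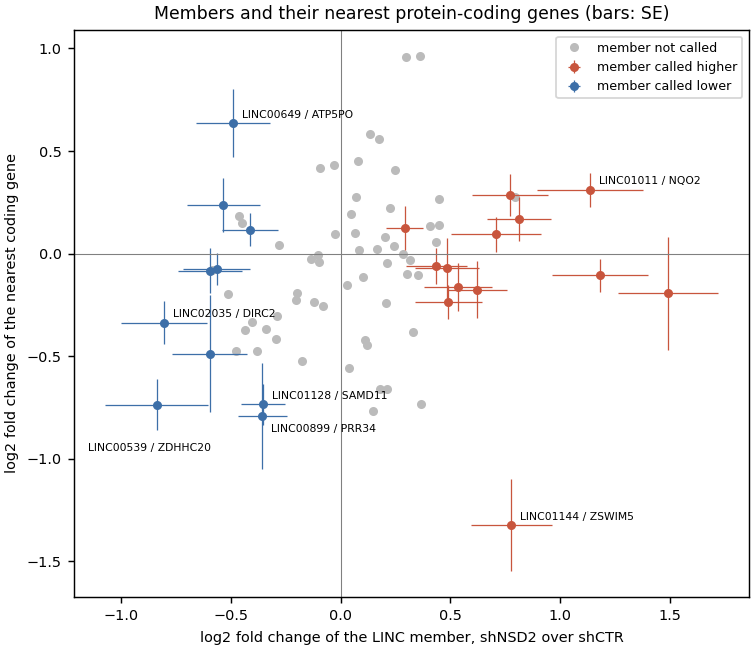
Log2 fold change, shNSD2 over shCTR, of each member with a tested coding neighbour within 100 kb (x) and of that neighbour (y), with SE bars and, where the neighbour was called too, names for called members. LINC00539 with ZDHHC20, LINC02035 with DIRC2, LINC01128 with SAMD11 and LINC00899 with PRR34 fall together. LINC01011 and NQO2 rise together, and LINC01144 with ZSWIM5 and LINC00649 with ATP5PO part.

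The median coefficient of variation of CPM over 3 libraries was 10.5% in shNSD2 and 12.8% in shCTR, and the widest were LINC02326 at 58.8% in shNSD2 and LINC02321 at 55.6% in shCTR. Of 35 members under 3 CPM, 2 rose and 4 fell, where 14.0% and 12.3% of other genes over the count minimum at that level did. Of 47 members at 3 to 10 CPM, 11 rose and 5 fell, beside 17.7% and 15.7% of other genes. Of 28 members at 10 CPM or more, 6 rose and 4 fell, beside 17.9% and 17.7%. At the count minimum, the lowest members were LINC01481 with 200 counts (108 in shNSD2 and 92 in shCTR) and LINC01446 with 203. Just under it, LINC01786 and LINC00663 had 195 counts each, 121 in shNSD2 and 74 in shCTR.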

How the data were processed

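RNA-seq libraries of C42 cells, 3 with shNSD2 and 3 with shCTR, were compared. The deposited table holds raw read counts per gene for each library, whole numbers without normalization. CASAVA 1.8.2, the aligner STAR 2.6.0a and the GRCh38 genome are named in the submitters' processing notes. A KAPA mRNA kit was used for the libraries, per the labels' protocols. How the authors counted reads (program, annotation release, strand setting) is not given in the sources used here.

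Counts of all genes were fitted with edgeR 4.0.16 in R 4.3.3 (filterByExpr by group, TMM factors, quasi-likelihood test, no covariate), and p-values were adjusted by Benjamini-Hochberg over the 17160 genes that passed the filter. The filter removed 14253 genes and 0 members. The threshold for a call was an adjusted p of 0.05. CPM values are scaled by TMM. Standard errors came from the fold change and its F statistic. Gene types, exons, coordinates and neighbours came from GENCODE 29, and RPKM uses all merged exons of a gene, so it understates genes that use few of them. The fit was tested on simulated counts.

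The members and lists were chosen with earlier results of these data known, and promoter motifs and lists are descriptions without a test. Named members are the 10 largest rises and 10 largest falls among called members without overlap, the 5 highest by RPKM, listed small-protein and cancer-studied loci, those at the count minimum, and nearest coding genes; other names were chosen after their values were seen. A few marker genes are not reported. Alternatives were other size factors, DESeq2 1.42.0, voom of limma 3.58.1, other low-count filters, a replicate block, a correction for GC content and length, other member thresholds, and each library left out.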

Additional observations from a re-analysis of the deposited data

How the results depend on the processing

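NSD2 fell in every alternative run. Over 15 refits (other size factors, other tests, other low-count filters, the replicate block, the GC and length correction, and each library left out), 0 of the 32 called members changed sign. All 32 had groups that did not overlap, so leaving out a library could hardly reverse a sign, and this is not read as support. Of the 32, 7 were called in all 15: LINC01133, LINC01029, LINC01694, LINC00294, LINC00957, LINC01011 and LINC01006. DESeq2 called 17 members higher and 9 lower (14.0% and 15.0% of all genes), limma-voom 20 and 13 (16.0% and 14.7%), and plain library size 19 and 11 (16.2% and 14.7%). With no low-count filter, 17 members rose and 11 fell, beside 7.62% and 7.96% of all genes, because many more low genes were tested. Leaving out each library in turn gave 8 to 29 members higher and 2 to 16 lower, with 6.33% to 23.9% and 7.49% to 22.6% of all genes; the highest values came without shCTR 4. In the fits that left out a library, LINC00839 was never called and had log2 fold changes from -0.17 to 0.029, the positive one without shNSD2 1; it was called, at -0.33, with the GC and length correction and the replicate block together (adjusted p = 0.027, edgeR). Restricting to members with no exon overlap left 12 higher and 7 lower of 61, beside 15.5% and 15.2% of all genes tested. The groups share the numbers 1 and 2, and the deviations of same-numbered libraries from their group means had correlations of 0.04 and -0.18 over 11218 genes, so the numbers were not taken as pairs. With the replicate block, 23 members rose and 12 fell (18.9% and 17.5% of all genes), among them 16 of the 19 and 9 of the 13. The numbers 3 and 4 each occur in 1 group only. Fits with the block therefore take the fold changes from libraries 1 and 2 of each group, with no part from shNSD2 3 or shCTR 4. With the GC and length correction and the replicate block together, 20 rose and 13 fell (18.5% and 15.4% of all genes) and the median log2 fold change of the members was 0.022; the cause was not tested. Members under 3 CPM have few reads behind each value, and the part of depth in their calls was not tested.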

Other observations

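Below the minimum of 200 counts, 89 LINC rows passed the low-count filter, and those named here were chosen after their values were seen. Some passed the filter through their higher group alone, so their number is not read as support. LINC02431 had 0, 0 and 0 counts in shNSD2 libraries, against 20, 26 and 22 counts in shCTR libraries, at least 7.31-fold lower in shNSD2 against a floor of 3 counts per library. LINC00836 had 1, 3 and 1 counts in shNSD2 libraries, against 21, 17 and 13 counts in shCTR libraries. In the other direction, LINC00853 had 50, 40 and 47 counts in shNSD2 libraries, against 13, 11 and 17 counts in shCTR libraries. LINC01234 had 17, 23 and 28 counts in shNSD2 libraries, against 4, 5 and 7 counts in shCTR libraries. In each of these 4 the groups did not overlap.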
